A study of Mus musculus with 9 samples.

Results

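The 71 genes described here rose when embryonic stem (ES) cells were deprived of cysteine (Cys) and stayed near their unstarved level when the cells were deprived of threonine (Thr). They were chosen by their own values among the 20189 genes of the deposited table of normalised read counts, which is the raw count of a gene divided by a size factor of its library. A gene was kept where its mean over 9 libraries was at least 200, the log2 ratio of the Cys-starved to the unstarved mean was at least 0.35, the log2 ratio of the Thr-starved to the unstarved mean lay within 0.2 of zero, and each Cys-starved library exceeded every unstarved and every Thr-starved library. These 71 genes were 0.352% of the table. Because the rule used the values in all 3 groups, the levels of the members in these libraries are a description and carry no test.

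The libraries came from E14, a wild-type mouse ES cell line, with 3 libraries per group. Cells were starved of Cys for 3 h, starved of Thr for 3 h, or kept for comparison as unstarved controls given all amino acids. The treatment notes spell out the starvation medium only for Arg and Leu, as SILAC medium with GlutaMAX, glucose, dialyzed serum, β-mercaptoethanol and leukemia inhibitory factor, and the medium of the libraries starved of Cys or Thr is not given there. The study's methods name a Cys-free DMEM with dialyzed serum for its cell death assays, and do not say whether it was used for these libraries. The cells were maintained without feeders on gelatin. Nothing states that the replicates were separate cultures, so that the p-values below measure only the spread between these libraries, which may be technical. Total counts per library ranged from 48763102 to 74962733. Between libraries of a group the chi-square per gene was 1.98 to 2.13, taken over genes with lower counts than any member. How much of it is counting noise was not tested. The summed normalised count of 12 ES cell markers lay between 185505 and 188344 in the Cys-starved and between 204221 and 205959 in the unstarved libraries, and none of the 12 was at 0 in any group. Sums over 5 detected fibroblast feeder markers ranged from 564 to 694 with Cys starvation and from 642 to 655 without, which overlap, as did those of mesoderm markers. The sums of 3 other marker sets did not overlap between these groups. Those of primitive endoderm were 425 to 507 with Cys starvation and 358 to 388 without, those of neural progenitors 4231 to 4463 and 3857 to 4003, and those of trophoblast 2081 to 2180 and 2319 to 2396. With Thr starvation the sums were 430 to 483 for feeder, 145 to 172 for mesoderm and 295 to 354 for primitive endoderm markers. For neural progenitor and trophoblast markers they were 4480 to 4608 and 2597 to 2887. None of these Thr-starved ranges overlapped the unstarved ones, which for mesoderm were 211 to 248. The ES cell marker sums with Thr starvation, 205636 to 210980, did overlap the unstarved ones. The part of these markers in the results was not tested. In bulk RNA, fewer cells of a type and less RNA per cell cannot be told apart.

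Cys is the sulphur amino acid from which cells build glutathione, and it supplies the thiol groups of proteins and iron-sulphur clusters. Loss of an amino acid can leave its tRNAs uncharged, which activates the kinase GCN2, and the integrated stress response (ISR) that follows raises the transcription factor ATF4 and its targets. Cys loss differs from Thr loss in that it also limits glutathione, the cofactor with which GPX4 detoxifies lipid peroxides.

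Among the 11527 genes with a mean of at least 200, 516 (4.48%) reached the Cys threshold. Most of these, 385, had a Thr ratio above 0.2, and 59 had a Thr ratio below -0.2. Within the window were 72 genes, of which 71 had no overlap between the Cys-starved and the other libraries, so the members made up 13.8% of the 516. The share of all tested genes whose 3 Cys-starved libraries lay above the 6 others was 6.88%. By the rule all 71 fell in that class, from which nothing is read.

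**Figure D1:**
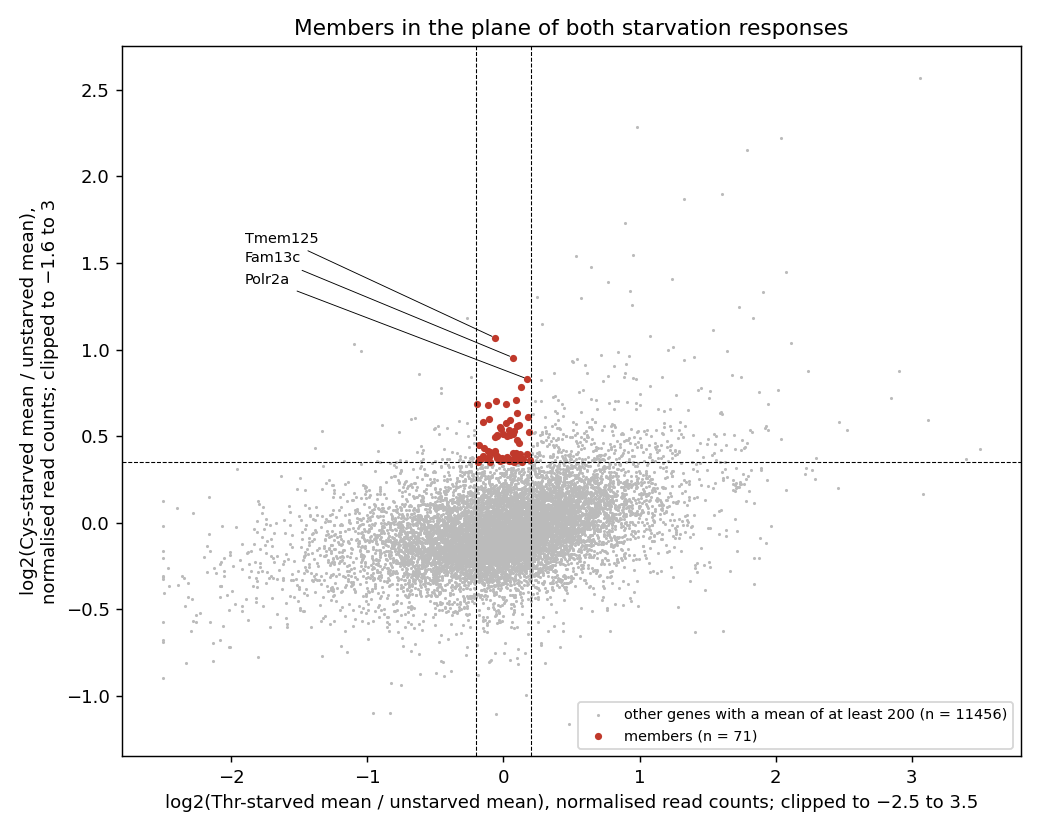
Log2 ratio of the Cys-starved to the unstarved mean (vertical) against that of the Thr-starved to the unstarved mean (horizontal) for every gene with a mean of at least 200 on the normalised scale. Dashed lines mark the thresholds of 0.35, 0.2 and -0.2. The 71 members (red) fill the strip over the centre of the plot, where Tmem125 reached 1.07.

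The increases were modest. The log2 ratio with Cys starvation ran from 0.35 to 1.07 with a median of 0.42, which is a median fold of 1.33 and a largest fold of 2.10. It was at least 0.5 in 29 members, at least 0.6 in 11, at least 0.7 in 6 and at least 0.8 in 3. With Thr starvation the log2 ratio had a median of 0.03 and ran from -0.19 to 0.19. The Thr mean was above the unstarved mean in 40 members and below it in 31. In 51 members the Thr-starved and unstarved libraries overlapped, in 11 every Thr-starved library lay above the unstarved ones and in 9 every one lay below. Across all tested genes these shares were 32.8% above and 33.6% below.

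In the edgeR fit over 20143 genes, whose log2 fold changes use TMM normalization, all 71 members were called higher with Cys starvation, beside 17.5% of all genes called higher and 18.8% called lower (adjusted p of 0.05 or less). With the deposited size factors the split over all genes was 2787 higher and 4786 lower, against 3523 and 3790 with TMM. With Thr starvation 7 members were called higher and 8 lower, beside 31.1% and 31.9% of all genes (63.0% in either direction), and 56 were not called. Those called higher were Polr2a, Alkbh4, Arhgap17, Ifrd1, Phf10, Tom1 and Pomk, by up to 0.19 (Tom1), and those called lower were Ccdc166, Zc3h10, Fosl2, Tnks1bp1, Gm14399, Gm14325, Rinl and Zfp72, by log2 fold changes down to -0.20 (Ccdc166). Against the Cys-starved libraries all 71 were called lower with Thr starvation, beside 31.6% of all genes (62.0% in either direction). The rule used these contrasts, and the counts are given for description. The standard error of the members' fold change with Cys starvation had a median of 0.07 and a range from 0.03 to 0.10.

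Tmem125, which encodes a membrane protein and lies on the minus strand at chr4:118540941-118544044 (GRCm38), had the largest ratio. Its normalised counts were 241, 264 and 236 in the unstarved libraries, 519, 503 and 532 in the Cys-starved and 239, 225 and 247 in the Thr-starved ones. The lowest Cys-starved library thus lay 0.93 log2 units above the highest of the others, which was the widest gap among the members. Fam13c, a relative of Fam13a, followed at a log2 ratio of 0.95, with 275, 256 and 262 unstarved, 482, 492 and 562 Cys-starved and 278, 272 and 282 Thr-starved counts. The rule excluded overlap, and here the lowest Cys-starved library lay 0.77 log2 units above the highest of the others.

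**Figure D2:**
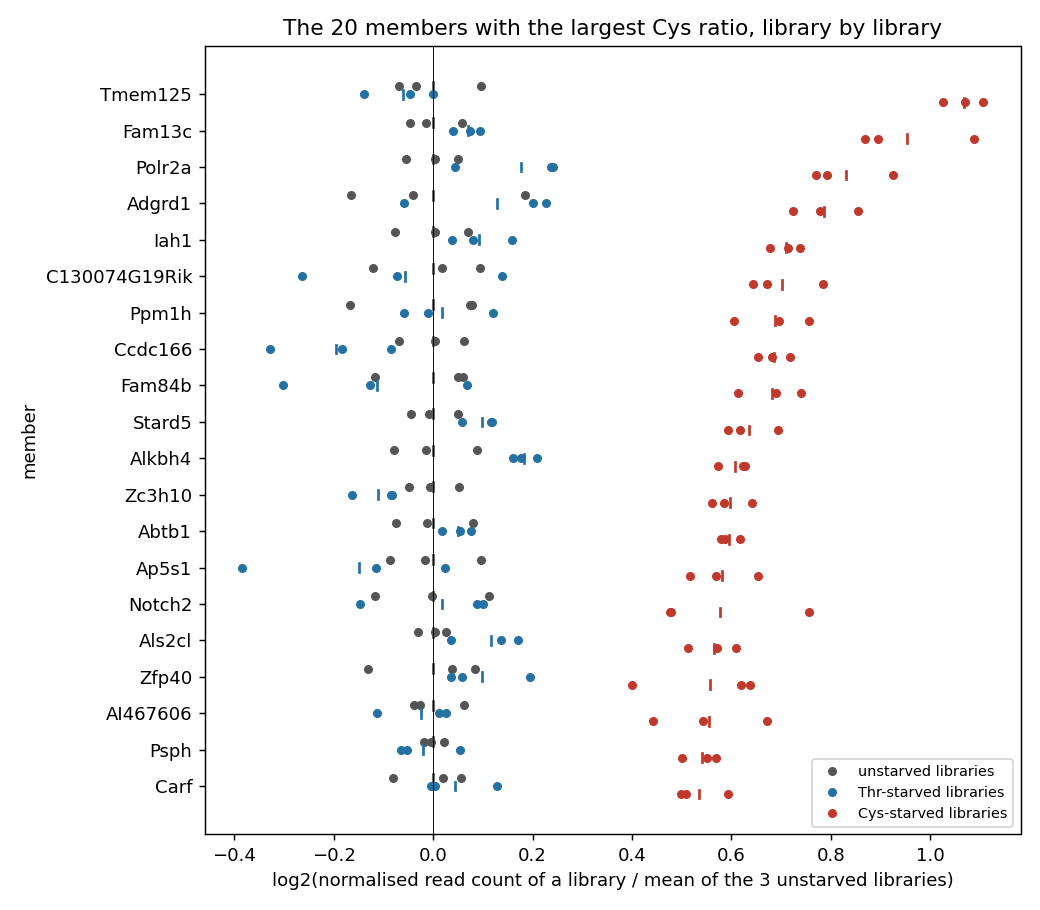
Log2 of each library's normalised count over the mean of the 3 unstarved libraries (horizontal) for the 20 members with the largest Cys ratio (vertical). Points are libraries, vertical ticks are group means. By the rule the Cys-starved libraries (red) lie to the right of all others in every line. Thr-starved (blue) and unstarved (grey) libraries lie around 0.

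The 71 members were placed by known role, and compared with relatives in the same complex or family, after their values had been seen. The largest group held 21 genes for transcription, chromatin and DNA-binding factors, with log2 Cys ratios from 0.36 to 0.83. Metabolism and small-molecule transport held 13 (0.35 to 0.71), receptors, ligands, kinases and phosphatases 9 (0.35 to 0.79), small GTPase regulators, cytoskeleton and cilia 7 (0.35 to 0.57), vesicle traffic 4 (0.36 to 0.58), and RNA binding and modification 3 (0.35 to 0.61). The remaining 14 were not placed.

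**Figure D3:**
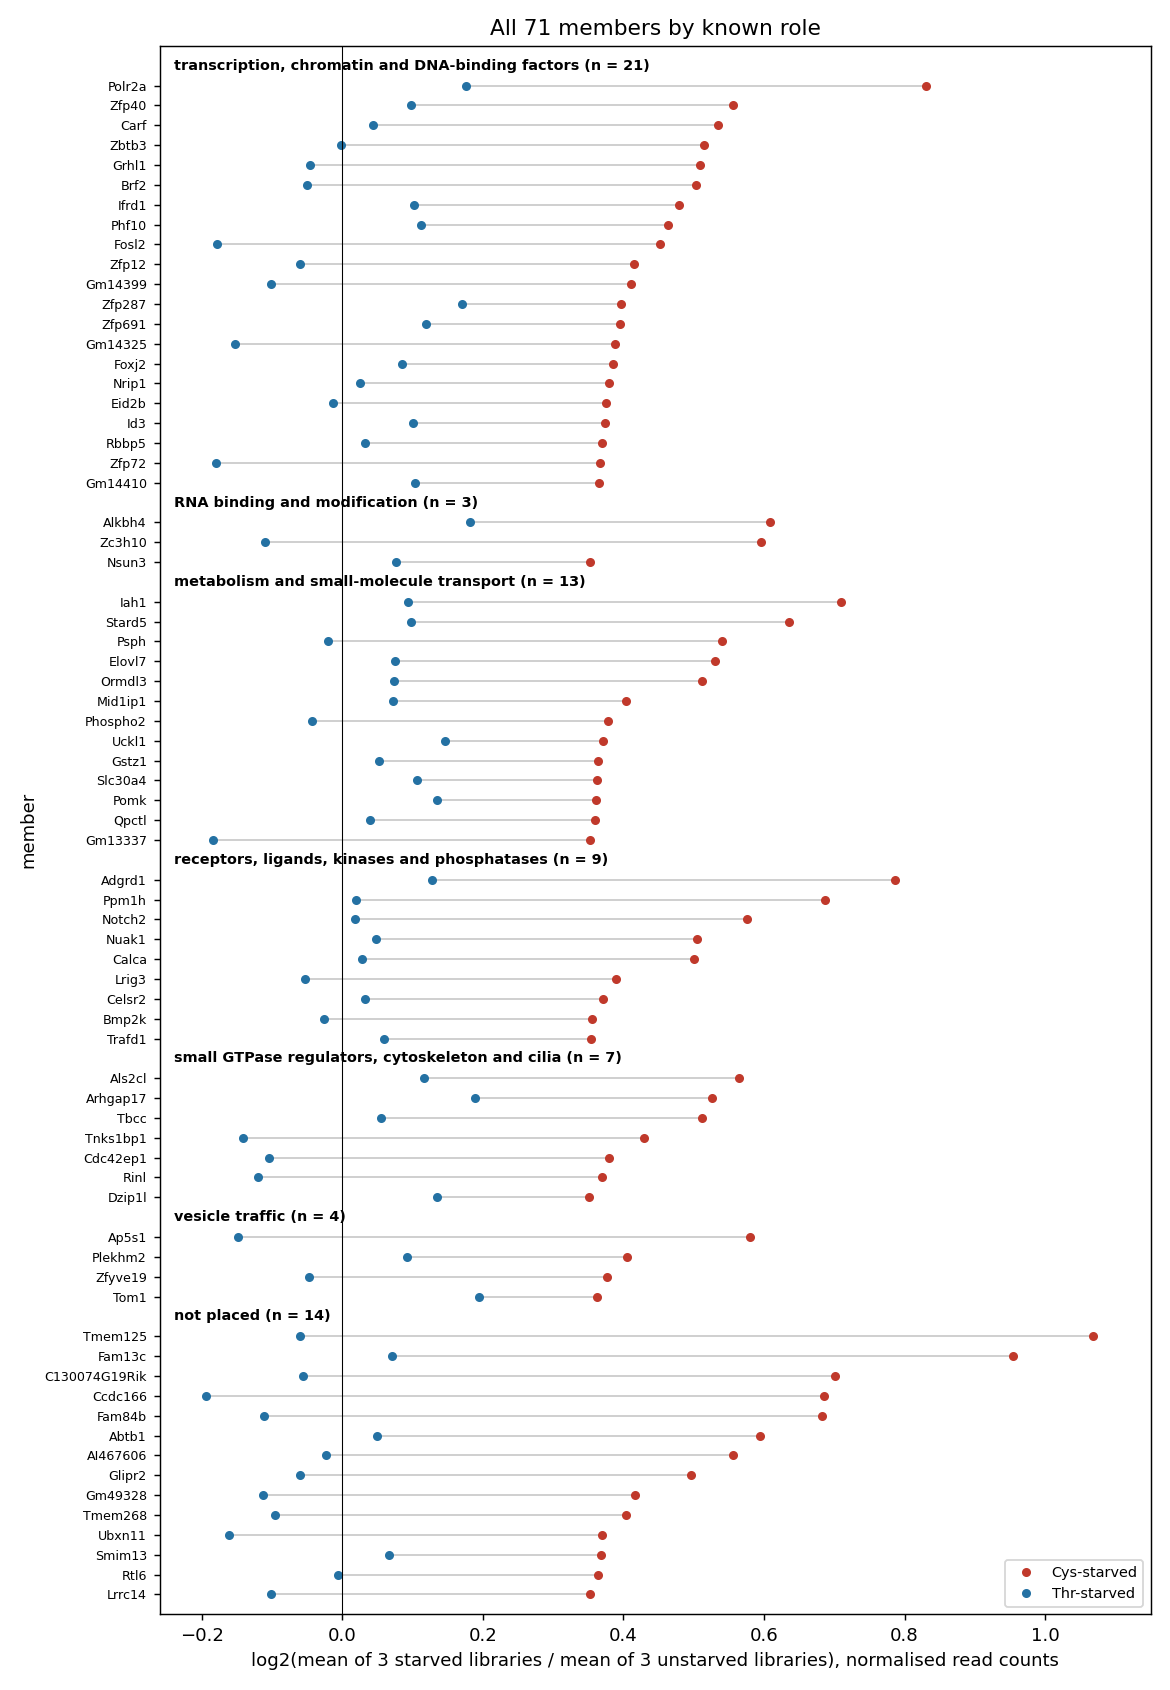
Log2 ratio of the starved to the unstarved mean of normalised counts for each of the 71 members, grouped by known role. Red points are Cys starvation and blue points Thr starvation, each the mean of 3 libraries over the mean of 3 unstarved libraries. Every red point lies at 0.35 or above and every blue point between -0.19 and 0.19, as the rule requires.

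Polr2a had the highest normalised count of the members, which is not adjusted for transcript length, and the third largest ratio. It lies on the minus strand at chr11:69733997-69758637 (GRCm38) and encodes RPB1, the largest subunit of RNA polymerase II, which holds the catalytic centre and the C-terminal repeat domain. Its counts were 13132, 13559 and 12621 in unstarved, 22679, 22339 and 24872 in Cys-starved and 15485, 15437 and 13507 in Thr-starved libraries, a log2 ratio of 0.83 with Cys and 0.18 with Thr. All Cys-starved values lay above the others, as the rule requires, and the Thr-starved range overlapped the unstarved one only through 1 library. Of the other 11 subunits of the enzyme, 7 were called lower with Cys starvation in the edgeR fit and none higher, with log2 fold changes from -0.24 to 0.045. The largest decreases were in Polr2j, at -0.24 ± 0.038 (SE, n = 3 per group, adjusted p = 2.10e-05), and Polr2l, at -0.21 ± 0.038 (adjusted p = 1.36e-04). Polr2b, which encodes the second largest subunit, was at -0.056 ± 0.022 and was not called (edgeR adjusted p = 0.054). With other scalings 9 or 10 of the 11 were called lower and none higher. Of all 11527 genes with a mean of at least 200, 30.2% were called lower and 24.5% higher with Cys (edgeR, TMM). A relative with a rise like that of Polr2a and a Thr ratio within 0.2 of zero could itself have met the rule. The relatives named in this and the next paragraphs are by construction genes that did not.

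RNA polymerase III transcription was represented by Brf2, the initiation factor of those genes whose promoter lies upstream of the transcribed part. Brf2 counts were 1142, 1154 and 1152 unstarved, 1681, 1596 and 1608 with Cys and 1135, 1113 and 1079.8 with Thr starvation. The 3 Thr-starved libraries lay slightly below the unstarved ones, and the 3 Cys-starved libraries lay above both, as the rule requires. Brf1, the paralogue that serves tRNA genes, was at a log2 fold change of 0.027 ± 0.071 (edgeR adjusted p = 0.817), and the partner subunit Bdp1 fell by 0.17 ± 0.044 on the log2 scale (adjusted p = 0.00382).

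Subunits of chromatin complexes were also among the members. Rbbp5, a core subunit of the COMPASS histone H3 lysine methyltransferases, had 3822, 3769 and 3902 unstarved, 4926, 4867 and 5052 Cys-starved and 3868, 3942 and 3947 Thr-starved counts. By the rule the groups did not overlap for Cys, and the Thr-starved range overlapped the unstarved range. Its partners moved in both directions in edgeR, with Ash2l higher by 0.12 ± 0.020 (adjusted p = 3.43e-05), Wdr5 at -0.15 ± 0.025 (adjusted p = 5.56e-05) and Dpy30 at -0.20 ± 0.026 (adjusted p = 2.44e-06). Phf10 belongs to PBAF, a chromatin remodeller of the SWI/SNF family. Its Cys-starved libraries were the tightest of all members, with a coefficient of variation of 0.114%, and it had 2911, 2926 and 2942 unstarved and 4033, 4029 and 4038 Cys-starved counts. Its Thr-starved counts, 3138, 3204 and 3144, were between the groups and overlapped neither. Among its partners, Brd7 was called higher by 0.090 ± 0.026 (edgeR adjusted p = 0.00947), a call lost with the deposited size factors (adjusted p = 0.17), and Arid2 and Pbrm1 were not called.

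Several DNA-binding factors and regulators rose. Fosl2, an AP-1 subunit, had 360.4, 362 and 356 unstarved, 505, 461 and 509 Cys-starved and 334, 295 and 324 Thr-starved counts, so that the Thr-starved libraries lay below both other groups. Of its relatives, Fosb and Fosl1 were not called, and Fos was at a log2 fold change of -0.11 ± 0.15 with Cys (edgeR adjusted p = 0.639) and rose by 1.13 with Thr (adjusted p = 2.38e-07). Grhl1, a grainyhead-like factor of epithelial genes, went from 417, 419 and 417 to 574, 584 and 625 with Cys and 401, 409 and 405 with Thr. Its paralogues fell with Cys, Grhl2 by 0.29 ± 0.062 (adjusted p = 8.00e-04) and Grhl3 by 0.24 ± 0.041 (adjusted p = 6.53e-05) in edgeR. With Thr, Grhl2 fell by 1.57 ± 0.070 (edgeR adjusted p = 6.18e-15).

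Id3 encodes an inhibitor of basic helix-loop-helix factors and a target of BMP signalling, which helps to hold ES cells undifferentiated. Its counts were 683, 639 and 705 unstarved, 863, 814 and 949 Cys-starved and 712, 712 and 748 Thr-starved, and the 3 Thr-starved libraries lay just above the unstarved ones. The other ID genes went in different directions. Id1 fell by 0.46 ± 0.055 with Cys (edgeR adjusted p = 6.27e-07) and by 1.48 ± 0.060 with Thr (adjusted p = 1.04e-15). Id4 rose by 0.62 ± 0.11 with Cys (adjusted p = 8.46e-05) and by 0.67 ± 0.11 with Thr (adjusted p = 1.16e-05), and Id2 was not called with Cys.

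Other factors followed, with their log2 Cys ratios in parentheses. Foxj2 is a forkhead factor (0.39), Carf binds calcium response elements (0.53), Nrip1 is a corepressor of nuclear receptors (0.38), Eid2b is related to inhibitors of the coactivator p300 (0.38), and Ifrd1 is a transcriptional coregulator (0.48). Ifrd1 had the second highest mean count, with 4453, 4341 and 4125 unstarved, 6109.5, 6032 and 5859 Cys-starved and 4557, 4514 and 4794 Thr-starved counts, and its Thr-starved libraries all lay above the unstarved ones. Its paralogue Ifrd2 was at 0.048 ± 0.030 with Cys (edgeR adjusted p = 0.233) and fell by 0.56 ± 0.031 with Thr (adjusted p = 2.70e-13).

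Over the 22 complexes and families that hold a member, 77 relatives were in the table. EdgeR called 21 of them higher and 20 lower with Cys, and 36 were not called. Of all 11527 genes with a mean of at least 200, 24.5% were called higher and 30.2% lower. The relatives were not tested against these shares. On the deposited scale 5 of the 77 relatives reached the Cys threshold, and these did not meet the rest of the rule.

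The members included genes with arrays of zinc fingers. At least 3 C2H2 zinc-finger patterns, counted in the codons of the longest coding sequence (Cys, 2 codons, Cys, 12 codons, His, 3 to 5 codons, His), were present in 8 of 69 members with a coding sequence (11.6%), against 4.35% of 9856 such genes with a mean of at least 200. The 8 were Zfp40 with 16 patterns, Zfp12 with 15, Zfp287 with 14, Zfp691 with 7, Zfp72 with 11, Gm14399 with 18, Gm14325 with 14 and Gm14410 with 9. C2H2 proteins of this kind bind DNA, and many of them silence transposable elements. Zfp40 had the highest ratio of the 8, with 245, 211 and 237 unstarved, 305, 355 and 359.6 Cys-starved and 237, 241 and 265 Thr-starved counts. The log2 ratios of the other 7 ran from 0.36 to 0.42. Zbtb3, a BTB-domain zinc-finger factor with 2 patterns, reached a log2 ratio of 0.51.

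Zinc-finger genes were also counted over the whole table. Among 313 genes named Zfp with a mean of at least 200, 5 of them members, edgeR called 182 higher and 38 lower with Cys (58.1% and 12.1%), against 24.5% and 30.2% of all 11527 genes at that level. Their median log2 fold change was 0.17 with Cys and 0.23 with Thr, where the medians of all 11527 were -0.02 and 0.01. With Thr 178 of the 313 were called higher and 81 lower, where 4775 and 4515 of the 11527 were. With the deposited size factors 155 were called higher and 48 lower with Cys. Of the 44 that reached the Cys threshold, 35 had a Thr ratio above 0.2, 4 had one below -0.2 and the other 5 were the members.

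Gm14325, Gm14410 and Gm14399 lie on chromosome 2 among zinc-finger genes that resemble each other, and the counts of the first pair are uncertain, since reads could be split between near-identical copies. Transcripts of 10 other genes match most of the Gm14325 transcript at 95% identity or more, and those of 12 match most of the Gm14410 transcript. Of the 11 of these that are not members, all 11 were called higher with Cys in edgeR, beside 17.5% of all genes tested. Their log2 fold changes ran from 0.31 to 0.42 with Cys and lay between -0.27 and -0.15 with Thr. Gm14325 had 1313, 1271 and 1366 unstarved, 1734, 1669 and 1765 Cys-starved and 1239.8, 1135 and 1179 Thr-starved counts, with the Thr-starved libraries below the unstarved ones. Gm14410 had 691, 691 and 616 unstarved, 848, 850.0 and 875 Cys-starved and 785, 694 and 668 Thr-starved counts, and here Thr-starved and unstarved libraries overlapped.

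**Figure D4:**
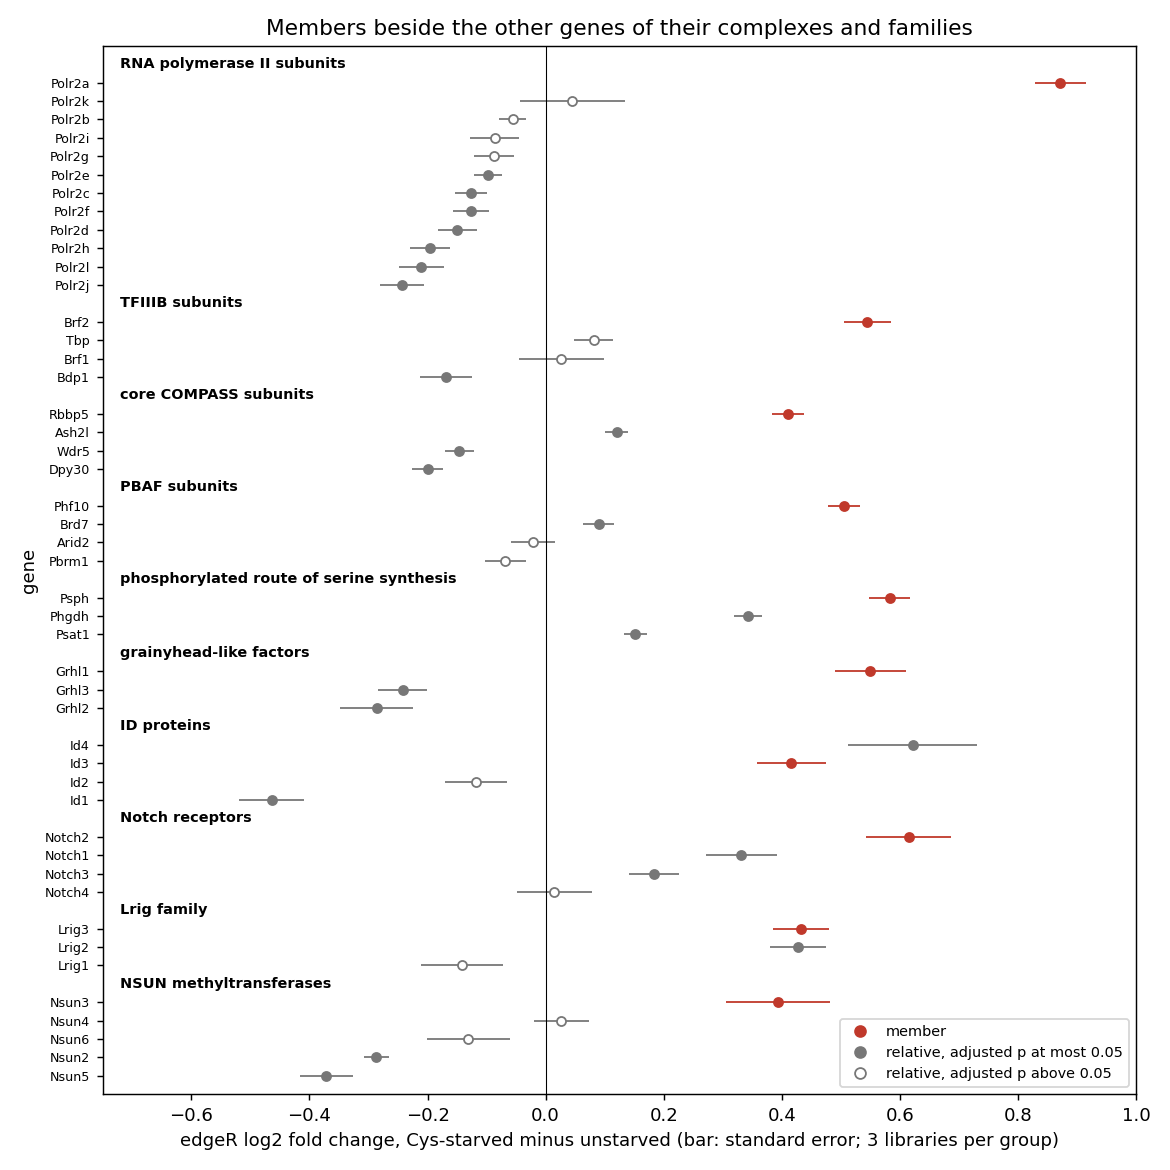
EdgeR log2 fold change, Cys-starved minus unstarved (horizontal), of members (red) and the other genes of 10 complexes or families (grey), with standard errors from 3 libraries per group. Filled grey points had an adjusted p of 0.05 or less. The 10 are part of 22 complexes and families and were picked after values were seen. Among those left out, the TOM1 family had 2 of 2 relatives called higher. The tubulin cofactors, also left out, had 0 of 4 called higher and 1 lower. Polr2a stands at 0.87 while its 11 partners lie between -0.24 and 0.05, and the relatives of Grhl1 lie below 0.

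Psph, which was on 2 of the 20 pathway lists examined, encodes phosphoserine phosphatase, which performs the last step of serine synthesis. Serine gives Cys its carbon skeleton through the transsulfuration pathway. Psph lies on the minus strand at chr5:129765558-129787449 (GRCm38) and overlaps Cct6a on the opposite strand, and since the strand setting of the counting is not stated, reads of the pair might be mixed. Its counts were 1905, 1887 and 1942 in the unstarved, 2836, 2799.8 and 2703 in the Cys-starved and 1827, 1844 and 1985 in the Thr-starved libraries, a log2 ratio of 0.54 with Cys and -0.020 with Thr. The Thr-starved and unstarved libraries overlapped. Phgdh, the first enzyme of the route, was called higher with Cys by 0.34 ± 0.024 (edgeR adjusted p = 1.69e-10) and lower with Thr by 0.26 ± 0.024 (adjusted p = 2.88e-09). Psat1, the middle enzyme, was called higher in both, by 0.15 ± 0.019 with Cys (adjusted p = 1.31e-06) and 0.24 ± 0.019 with Thr (adjusted p = 1.69e-10). A further member, Gm13337, is a processed pseudogene whose transcript matches that of Phgdh over its full length at 95% identity or more, so its reads cannot be told apart from those of Phgdh with certainty. It had 293, 291 and 327 unstarved, 368, 378 and 416 Cys-starved and 233, 266 and 303 Thr-starved counts, with the Thr-starved and unstarved libraries overlapping, where Phgdh itself had 9852, 10234 and 9977 unstarved, 12479.9, 12240.5 and 12317 Cys-starved and 8303, 8251 and 8653 Thr-starved counts.

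The list of ISR and ATF4 targets as a whole responded to both starvations. Of its 49 genes edgeR called 45 higher and 1 lower with Cys, and 38 higher and 7 lower with Thr, with median log2 fold changes of 0.58 and 0.63 beside 0.01 and -0.02 over all genes tested. Among the 29 that reached the Cys threshold, 26 had a Thr ratio above 0.2, Psph alone lay within the window, and 2 lay below -0.2. Those 2, named after their values were seen, were Pck2, the mitochondrial PEP carboxykinase, with log2 ratios of 1.18 and -0.27, and Slc7a11, the cystine transporter xCT, with 0.51 and -0.22. The list's strongest responders rose with both. Atf3, a stress-induced bZIP factor, rose by 2.61 ± 0.064 with Cys (adjusted p = 2.34e-18) and 3.06 ± 0.063 with Thr (adjusted p = 7.27e-21). Inhbe, an activin subunit, rose by 2.34 ± 0.084 with Cys (edgeR adjusted p = 2.00e-15) and 0.99 ± 0.092 with Thr (adjusted p = 2.45e-09). Adm2, a peptide hormone, rose by 2.26 ± 0.066 with Cys (edgeR adjusted p = 4.95e-17) and 2.03 ± 0.067 with Thr (adjusted p = 3.25e-17). Of all 11527 genes with a mean of at least 200, 24.5% were called higher and 30.2% lower with Cys. With Thr 4775 of these were called higher and 4515 lower.

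Of 22 serine and one-carbon enzymes edgeR called 10 higher and 3 lower with Cys, and 11 higher and 7 lower with Thr. Their median log2 fold change was 0.05 with Cys and 0.09 with Thr. Aldh1l2 and Mthfd2, mitochondrial enzymes of the folate cycle, were among those that rose with both starvations. Aldh1l2 rose by 1.38 ± 0.070 with Cys (edgeR adjusted p = 8.00e-13) and 0.93 ± 0.073 with Thr (adjusted p = 1.32e-10). Mthfd2 rose by 0.70 ± 0.023 with Cys (edgeR adjusted p = 3.52e-16) and 0.81 ± 0.023 with Thr (adjusted p = 1.69e-18). Of all 11527 genes with a mean of at least 200, 24.5% were called higher and 30.2% lower with Cys. With Thr 4775 of these were called higher and 4515 lower.

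The lists closest to Cys biology were examined in the same way. Of 39 genes of Cys and glutathione metabolism, 4 were called higher and 14 lower with Cys (edgeR, median log2 fold change -0.10), and 3 reached the Cys threshold, of which 2 also had a Thr ratio above 0.2 and 1 was below -0.2. Of the 28 measured genes of NRF2 and its targets, 4 were called higher and 17 lower, of 29 iron and ferroptosis genes 5 higher and 13 lower, and of 25 cytosolic heat shock genes 1 higher and 16 lower. None of the iron and ferroptosis or heat shock genes reached the threshold. With Thr, 8 genes of Cys and glutathione metabolism were called higher and 25 lower, and of NRF2 and its targets 3 and 21. For iron and ferroptosis genes the Thr calls were 11 higher and 9 lower, and for heat shock genes 4 and 19. Of all 11527 genes with a mean of at least 200, 24.5% were called higher and 30.2% lower with Cys. With Thr 4775 and 4515 of them were. Among the members, Gstz1 is the only glutathione transferase. It works in tyrosine breakdown, and its counts were 629, 705 and 602 unstarved, 797, 817 and 877 Cys-starved and 659, 661 and 689.7 Thr-starved.

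A few members act on lipids. Stard5, which carries sterols and bile acids, had 423, 406 and 396 unstarved, 661, 626 and 615 Cys-starved and 425, 443 and 443 Thr-starved counts, with the Thr-starved libraries all slightly above the unstarved ones. Elovl7, an elongase of saturated very-long-chain fatty acids, had 396, 381 and 362 unstarved, 564, 572 and 509.7 Cys-starved and 385, 415 and 399 Thr-starved counts, and its Thr-starved and unstarved libraries overlapped. Ormdl3, which restrains serine palmitoyltransferase at the start of sphingolipid synthesis, had 845, 864 and 819.6 unstarved, 1236, 1202 and 1167 Cys-starved and 862, 911 and 889 Thr-starved counts. As the rule requires, none of these Cys-starved ranges touched another group. Mid1ip1, an activator of acetyl-CoA carboxylase, reached a log2 ratio of 0.40. The 2 relatives of Stard5 in the Stard4 subfamily had log2 fold changes of 0.08 and 1.01 with Cys. EdgeR called 1 of them higher with Cys and 1 higher with Thr, and 0 lower with either. Of the 6 other fatty acid elongases edgeR called 1 higher and 1 lower with Cys and 2 higher and 3 lower with Thr. Elovl3 was higher with Cys by 1.83 ± 0.49 (adjusted p = 0.0047) at a mean count of only 7.78, and Elovl1 was lower by 0.17 ± 0.064 (adjusted p = 0.0393). Of 37 genes of sterol and fatty acid synthesis, 4 were called higher and 19 lower with Cys, and 4 higher and 29 lower with Thr. Of all 11527 genes with a mean of at least 200, 24.5% were called higher and 30.2% lower with Cys. With Thr 4775 of these were called higher and 4515 lower.

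Iah1, an esterase, had the largest ratio of the metabolic members, with 529, 585 and 559 unstarved, 931, 914 and 892 Cys-starved and 623, 589 and 573 Thr-starved counts. It overlaps Adam17 on the opposite strand, so that the same doubt about strand holds for its reads. In all, 19 members overlapped a gene on the opposite strand (26.8%, against 25.5% of genes with a mean of at least 200). Fam13c, Adgrd1, Brf2, Phf10 and Ifrd1 were among them, and the doubt extends to each of the 19. Uckl1, a uridine kinase-like protein (0.37), Phospho2, a phosphatase with activity towards pyridoxal phosphate (0.38), Qpctl, a glutaminyl cyclase of the Golgi (0.36), and Pomk, which phosphorylates the mannose of α-dystroglycan (0.36), were lower in the order. Slc30a4 exports zinc from the cytosol into vesicles (0.36). Of 8 other SLC30 exporters in the table, edgeR called 2 higher and 3 lower with Cys, beside 17.5% and 18.8% of all genes tested. The highest was Slc30a6, at 0.37 ± 0.058 with Cys (adjusted p = 2.15e-05) and -0.013 ± 0.060 with Thr (adjusted p = 0.87). On the deposited scale Slc30a6 fell just short of the Cys threshold, with group means of 475 unstarved, 598 Cys-starved and 473 Thr-starved.

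Among receptors and signalling genes, Adgrd1, an adhesion G protein-coupled receptor, had 446, 569 and 487 unstarved, 906, 827 and 858 Cys-starved and 586, 480.5 and 575 Thr-starved counts. The spread between its unstarved libraries was among the widest of the members, with a coefficient of variation of 12.5%. That the Cys-starved libraries lay above it was required by the rule. Notch2, a receptor for Delta and Jagged ligands, had 1113, 1206 and 1029 unstarved, 1553, 1554 and 1884 Cys-starved and 1196, 1186 and 1007 Thr-starved counts. The value in Cys-starved replicate 3 was above the other 2. Notch1 was called higher in both starvations, by 0.33 ± 0.060 with Cys (edgeR adjusted p = 1.29e-04) and 0.34 ± 0.061 with Thr (adjusted p = 4.10e-05). Notch3 rose by 0.18 ± 0.042 with Cys (adjusted p = 0.00128) and fell by 0.19 with Thr (adjusted p = 5.65e-04). Notch4 was not called with Cys and fell by 1.97 ± 0.077 with Thr (adjusted p = 6.52e-16).

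Celsr2, a planar cell polarity cadherin, had 522, 536 and 507 unstarved, 626, 618 and 780.1 Cys-starved and 546, 568 and 488 Thr-starved counts, again with the highest value in Cys-starved replicate 3 and with Thr-starved values around the unstarved ones. Its relatives Celsr1 and Celsr3 were called higher with Cys by 0.21 ± 0.067 and 0.20 ± 0.067 (edgeR adjusted p = 0.0188 and 0.0229), and neither call held with the deposited size factors (adjusted p = 0.0562 and 0.0669). Lrig3, a leucine-rich repeat membrane protein that modulates growth factor receptors, reached 0.39. Its relative Lrig2 rose by 0.43 ± 0.048 with Cys (edgeR adjusted p = 2.58e-07) and by 0.95 ± 0.047 with Thr (adjusted p = 3.63e-14). Calca, which encodes calcitonin and the peptide CGRP, had 286, 273 and 304 unstarved, 386, 425 and 410.1 Cys-starved and 283, 296 and 301 Thr-starved counts. As the rule requires, the Cys-starved values overlap no other group, while the Thr-starved and unstarved values overlap. The enzymes of signalling were Ppm1h, a phosphatase that acts on Rab GTPases (0.69), Nuak1, a kinase of the AMPK-related family (0.50), Bmp2k, a kinase of clathrin adaptors (0.36), and Trafd1, a negative regulator of innate immune signalling (0.35). Ppm1h counts were 189, 159.7 and 189 unstarved, 290.4, 303 and 272 Cys-starved and 178, 172 and 195 Thr-starved, with clear space between the Cys-starved values and the rest.

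Genes of small GTPases and the cytoskeleton comprised Als2cl, an alsin-like exchange factor (0.57), Arhgap17, a GTPase-activating protein for Cdc42 and Rac (0.53), Cdc42ep1, a Cdc42 effector (0.38), Rinl, a Ras and Rab interactor (0.37), Tbcc, a tubulin folding cofactor (0.51), Tnks1bp1, which binds tankyrase (0.43), and Dzip1l, a ciliary protein (0.35). Als2cl had 570.1, 593 and 584 unstarved, 866, 888 and 831 Cys-starved and 640.3, 656 and 598 Thr-starved counts, with every Thr-starved library slightly above the unstarved ones. Tnks1bp1, with the fifth highest mean count, had 3038, 3122 and 3057 unstarved, 4021, 4200.3 and 4193 Cys-starved and 2759, 2897 and 2704 Thr-starved counts, with every Thr-starved library below them. Of the other 4 tubulin cofactors none was called higher with Cys and 1, Tbca, was called lower, by 0.13 ± 0.043 (edgeR adjusted p = 0.0224).

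In vesicle traffic, Ap5s1, a subunit of the AP-5 adaptor of late endosomes, had 214, 189 and 198 unstarved, 286, 297 and 315 Cys-starved and 185, 153 and 203 Thr-starved counts. The Thr-starved libraries were spread widely and, as the rule requires, lay below every Cys-starved one. The mean of Ap5s1 over 9 libraries, 227, passed the minimum of 200 with unstarved and Thr-starved means of 200.2 and 181. Ap5z1, another subunit, was called higher with Cys by 0.24 ± 0.046 (edgeR adjusted p = 2.07e-04), and Ap5m1 and Ap5b1 were not called. Tom1, an endosomal sorting protein (0.36), Plekhm2, which links lysosomes to kinesin (0.41), and Zfyve19, a phosphoinositide-binding protein of the abscission checkpoint (0.38), completed the group. Tom1 counts are uncertain, because Gm5884 matches 65.2% of its transcript, and Gm5884 was at 0.39 ± 0.042 with Cys (edgeR adjusted p = 1.47e-07) and 0.18 ± 0.042 with Thr (adjusted p = 6.63e-04).

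The members grouped under RNA binding and modification were Alkbh4, a dioxygenase of the AlkB family, Nsun3, the methyltransferase of mitochondrial tRNA-Met, and Zc3h10, a CCCH zinc-finger RNA-binding protein. That Alkbh4 acts on RNA is not established here, and its log2 Cys ratio of 0.61 is the highest of the group. Alkbh4 had 623, 580.3 and 555 unstarved, 905, 872 and 902 Cys-starved and 678, 655 and 662 Thr-starved counts, so that Thr-starved libraries lay above the unstarved and below the Cys-starved ones. Zc3h10 had 878, 844 and 819.6 unstarved, 1272, 1249 and 1322 Cys-starved and 799.9, 757 and 799 Thr-starved counts, with the Thr-starved libraries lowest. Nsun3 was a weak case, with 242, 274 and 257 unstarved, 334, 291 and 363 Cys-starved and 259, 289 and 268 Thr-starved counts. Its lowest Cys-starved library cleared the highest of the others by only 0.012 log2 units, the narrowest gap among the 71. The sister genes Nsun2 and Nsun5 fell with Cys by 0.29 ± 0.021 and 0.37 ± 0.045 (edgeR adjusted p = 2.81e-10 and 7.36e-07).

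The 14 genes that were not placed included 5 of the 9 largest ratios. Besides Tmem125 and Fam13c these were C130074G19Rik (0.70), Ccdc166 (0.69) and Fam84b (0.68). Ccdc166 had 286, 313 and 301 unstarved, 481, 472 and 493 Cys-starved and 283, 239 and 264 Thr-starved counts. Its Thr ratio was the lowest of the members, and all its Thr-starved libraries lay below the unstarved ones. Fam84b had 384, 343 and 387 unstarved, 599, 620.3 and 568 Cys-starved and 340.1, 389.6 and 301 Thr-starved counts, and C130074G19Rik had 193, 212 and 224 unstarved, 334, 361 and 328 Cys-starved and 199.5, 175 and 231 Thr-starved counts. In both the Thr-starved and unstarved libraries overlapped. Abtb1, a BTB and ankyrin repeat protein, had 2070.0, 1981 and 2207 unstarved, 3199.9, 3115 and 3133 Cys-starved and 2198, 2113 and 2166 Thr-starved counts, again with overlap of the unstarved and Thr-starved values only. AI467606 reached 0.56 and Glipr2, a Golgi-associated protein, 0.50. Tmem268 (0.40), Ubxn11 (0.37), Smim13 (0.37), Rtl6 (0.36), Lrrc14 (0.35) and the unprocessed pseudogene Gm49328 (0.42) stood lower, and Gm49328 shares sequence with 13 other genes over up to 21.3% of its transcript.

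At the edge of the rule values ran on without a break. The members nearest to the Cys threshold were Dzip1l at 0.351, Gm13337 at 0.352 and Lrrc14 at 0.353. Just outside lay Tcaim at 0.349968, Rere at 0.345 and Uhrf1bp1 at 0.344. At the Thr threshold Ccdc166, Tom1 and Arhgap17 were inside at absolute ratios of 0.195, 0.195 and 0.188, and Manea, Zfp623 and Iqcc were outside at 0.213, 0.214 and 0.215.

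The members' counts lay low within the range the rule allowed. Their mean normalised counts ranged from 216 to 17070 with a median of 495, where the 11527 genes had a median of 1454. Replicate spread was wider, with a median coefficient of variation of 4.57%, 4.27% and 4.79% in the unstarved, Cys-starved and Thr-starved groups against 3.02%, 2.89% and 3.23% over all genes at that level. Cys-starved replicate 3 held the highest of the 3 Cys-starved values in 32 members (45.1%), against 29.1% of all genes with a mean of at least 200. The gap between the lowest Cys-starved and the highest other library had a median of 0.30 log2 units, was below 0.1 in 5 members and was at least 0.3 in 32.

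Membership moved with the scale of the table. TMM normalization put the Cys-starved libraries 0.04 log2 units higher against the unstarved ones than the deposited size factors did, and 106 genes then met the rule, among them all 71. When the threshold was raised by that shift, 72 met it, among them all 71, a check that was added after seeing the data. Scaling by total counts gave 190 genes with 68 of the members. The summed deposited values of a Cys-starved library lay between 39865551 and 40106642, below the 42827068 to 43228864 of the unstarved ones. Leaving out 1 library at a time gave between 68 and 78 genes, and 39 members met the rule in each of the 9 cases. The 32 that did not included Polr2a, Adgrd1, Ccdc166, Fam84b, Alkbh4 and Ap5s1 among the 20 with the largest ratios.

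**Figure D5:**
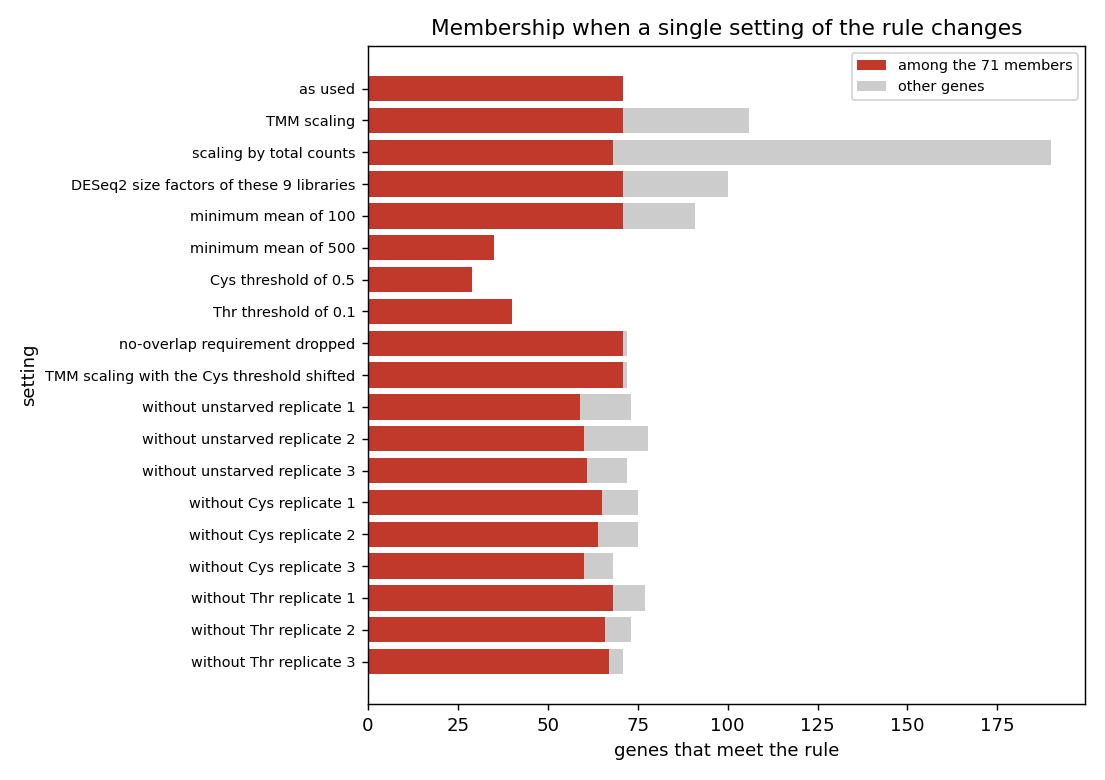
Number of genes that meet the rule (horizontal) when a single setting is changed (vertical), split into the 71 members (red) and other genes (grey). All 71 were kept with TMM scaling, when 106 genes met the rule, and 29 with a Cys threshold of 0.5.

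The sequence features of the members were described without a test. In GENCODE M21 on GRCm38, 69 of 71 were protein coding (97.2%, against 85.5% of the genes with a mean of at least 200). The 5′ UTR of the transcript with the longest coding sequence held at least 1 ATG triplet in 44 of 69 members (63.8%) against 47.4%, and its median length was 200 bases against 159. Such upstream start codons can shape translation when the ISR is active. Cys codons made up a median of 2.21% of all codons in members and 1.85% in all genes. In genes with fewer than 3 zinc-finger patterns these values were 1.78% and 1.80%. Thr codons made up 5.16% and 5.03%. Members lay on 18 chromosomes, with 10 on chromosome 2 (14.1%, against 8.22% of the genes at that level). Overlap with another gene of the table was as frequent as elsewhere, at 29.6% against 30.5%.

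RefSeq promoters of build GRCm38.p6, from 250 bases before to 50 after the start, were given for 58 members and 7917 genes with a mean of at least 200. The C/EBP-ATF composite element bound by ATF4, searched as TGATGNAAN on both strands, was in 3 of 58 member promoters (5.17%) against 2.00% of all. The promoter of Psph did not hold it. The cAMP response element, TGACGTCA, which is the same on both strands and is bound by ATF and CREB factors, was in 4 (6.90%) against 3.70%. The NRF2 motif TGACNNNGC was in 7 (12.1%) against 14.9%, the E-box CACGTG in 3 (5.17%) against 11.2%, and the heat shock pair GAANNTTC in 6 (10.3%), Polr2a and Rbbp5 among them, against 5.23%. The sterol element TCACNCCAC was in 1.72% against 1.02%, the half-site CCACG in 48.3% against 49.6%, the metal element TGCNCNC in 65.5% against 60.5%, CCAAT in 32.8% against 39.9%, the GC box GGGCGG in 67.2% against 68.5% and TATAAA in 3.45% against 6.01%. These are letter matches and not binding sites, and with so few promoters each share rests on a handful of genes.

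The 7 windows with an ATF-type motif are shown because they are the members' matches to the letters that ATF4 and its partners bind. Each is 60 bases, read 5′ to 3′ on the strand of the gene, with the motif in capitals. The first 3 hold the composite element, in Trafd1 on the opposite strand, and the last 4 the cAMP response element.
Tmem268 (GRCm38.p6, chr4:63558519-63558578, plus strand): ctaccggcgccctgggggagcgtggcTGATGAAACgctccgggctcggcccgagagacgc
Nrip1 (GRCm38.p6, chr16:76373953-76374012, minus strand): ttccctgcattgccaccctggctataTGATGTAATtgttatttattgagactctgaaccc
Trafd1 (GRCm38.p6, chr5:121385625-121385684, minus strand): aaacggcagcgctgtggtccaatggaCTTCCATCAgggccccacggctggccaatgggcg
Ormdl3 (GRCm38.p6, chr11:98587246-98587305, minus strand): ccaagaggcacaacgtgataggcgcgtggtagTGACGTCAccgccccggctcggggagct
Tbcc (GRCm38.p6, chr17:46890559-46890618, plus strand): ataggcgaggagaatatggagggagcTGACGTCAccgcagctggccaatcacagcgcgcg
Phospho2 (GRCm38.p6, chr2:69789549-69789608, plus strand): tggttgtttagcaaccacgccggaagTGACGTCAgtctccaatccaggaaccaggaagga
Zfp72 (GRCm38.p6, chr13:74390830-74390889, minus strand): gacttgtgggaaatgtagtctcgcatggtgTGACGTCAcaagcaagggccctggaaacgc
These matches began between 28 and 218 bases before the start, at 28, 30 and 36 bases in Ormdl3, Zfp72 and Tbcc. The normalised counts of Tmem268, a membrane protein, were 401, 343 and 388 unstarved, 466, 525 and 507 Cys-starved and 369.6, 337 and 352 Thr-starved, and Nrip1 had 294, 313 and 299 unstarved, 351, 390.5 and 437 Cys-starved and 294, 332 and 296 Thr-starved counts. Trafd1 had 419, 403 and 375 unstarved, 507, 526 and 498 Cys-starved and 416, 390.4 and 441 Thr-starved counts. In all 3 the Thr-starved and unstarved libraries overlapped, and the Cys-starved ones lay above, as the rule requires. Zfp72 had 375, 358 and 366 unstarved, 470.0, 461 and 486 Cys-starved and 316, 339 and 315 Thr-starved counts, with the Thr-starved libraries below the unstarved ones, and Phospho2 had 493, 511 and 521 unstarved, 659, 645 and 679 Cys-starved and 495, 489 and 496 Thr-starved counts. Tbcc counts were 721, 708 and 700.5 unstarved, 1054, 1021 and 962 Cys-starved and 756, 781 and 676 Thr-starved.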

How the data were processed

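Poly(A) RNA of E14 mouse ES cells was sequenced from libraries made with a directional kit. The authors mapped reads to GRCm38 with STAR 2.7.4a and deposited raw counts per gene made with HTSeq, whose strand setting is not given in the sources used here. They also deposited a normalised signal, which is the count divided by 1 DESeq2 size factor per library. Files hold 9 libraries in 3 groups, with 48763102 to 74962733 counts each. How far counting noise and the spread between replicates each limited precision was not tested.

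The rule for the 71 members was applied to the deposited normalised table. Counts were tested with edgeR 4.0.16 in R 4.3.3 (quasi-likelihood test, TMM, all 9 libraries, genes with a count of at least 1, Benjamini-Hochberg adjustment over 20143 genes, threshold 0.05). Log2 ratios of means refer to the deposited scale and log2 fold changes to edgeR. Members, gene lists, families and roles were chosen with earlier results of these data known, and no pattern in them is independent support. Named genes were the 20 members with the largest Cys ratio, the 5 with the highest mean, and the 3 non-members with the largest Cys fold change on each list named with examples. One gene that this rule names is not reported here. Other members and relatives were named for their role after their values were seen. Transcript features came from GENCODE M21, promoters from RefSeq GRCm38.p6 (58 of 71 members matched), and near-identical transcripts from BLAST 2.17.0 (95% identity over at least 100 bases).

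The fit was tested on simulated counts of 20143 genes in the Cys design. There edgeR recovered 90 of 97 genes changed by 0.35 and 103 of 103 changed by 0.7 on the log2 scale, with 7 false calls. Only 200 genes were changed, some up and some down, where 7313 were called in the data. The simulation thus could not test how the calls depend on the size factors. Alternatives were DESeq2 1.42.0, other size factors, other filters, the replicate number as a block, fits of 2 groups only, other thresholds of the rule and leaving out each library. Libraries that carry the same number in different groups did not deviate together (correlations between -0.23 and 0.10), so the numbers were not taken as pairs.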

Additional observations from a re-analysis of the deposited data

How the results depend on the processing

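In edgeR and the other fits all 71 members were called higher with Cys starvation under each of the 15 alternatives. The rule chose them by that rise in the same libraries, so these calls were close to fixed in advance and carry no support. With TMM 17.5% of all genes were called higher. No named gene changed direction with a call. Of the other named genes, the deposited size factors moved 6 out of the call and 10 into it, while each other full-data alternative moved at most 3. The number of genes meeting the rule was 71. It depended on the scaling, with 190 for total counts, 106 for TMM and 100 for DESeq2 size factors of these 9 libraries. Stricter thresholds let fewer genes pass by construction. They gave 35 with a minimum mean of 500, 29 with a Cys threshold of 0.5 and 40 with a Thr threshold of 0.1. Leaving out 1 library at a time gave 68 to 78. The median log2 fold change of the members with Cys was 0.46, 0.42 with the deposited size factors, and 0.455 to 0.484 without 1 library. With Thr it was 0.03, 0.035 with RLE normalization, and 0.020 to 0.047 without 1 library.

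Genes called with Cys numbered 7313 (6520 to 7475 without 1 library, and 6951 with DESeq2), with Thr 12689 (12096 to 12689) and between the starvations 12488 (11788 to 12540). List genes called with Cys numbered 361 (338 to 378). With the replicate number as a block, the counts were 7063, 12488 and 12334, 71 members and 356 list genes were called, and the member medians were 0.46 with Cys and 0.025 with Thr. The numbers did not pair the libraries. No call of a member was lost under the block, which the rule made likely, and 1 other named gene lost its call.

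Limits are the 3 libraries per group of unstated independence, the single time of 3 h, small ratios near the threshold, and counts shared among near-identical or overlapping genes.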
